A study of Mus musculus with 4 samples.

Results

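The genes described are Tlr4, Ly96, Cd14, Lbp, Cd180, Ly86, Myd88, Tirap, Ticam1 and Ticam2. They encode the receptor complex for lipid A, the related RP105 complex and the adaptors that bind inside the cell. They were chosen by gene symbol, and all 10 were found among the 55536 annotated genes of the tables. The samples were 4 libraries of cytosolic RNA, depleted of ribosomal RNA, from macrophages that had been grown in culture from the bone marrow of C57BL/6J mice. The cells had received 100 ng/ml lipid A for 12 h, had been kept without it for 12 h after washing, and had then received 100 ng/ml for 15 min. All 4 libraries, called biological replicates 1 to 4, belong to this 1 group, so nothing here measures a response to the ligand. The labels give neither the sex nor the age of the animals and name 1 donor record for all 4 libraries. A p-value here thus covers only how far these samples spread, and that spread may be technical.

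Lipid A is the membrane anchor of bacterial lipopolysaccharide. The serum protein LBP extracts it from membranes and hands it to CD14, which passes it to MD-2, encoded by Ly96, held on the outer domain of TLR4. The dimerised receptor recruits TIRAP and MyD88 at the plasma membrane, which leads to NF-kB, and TRAM (Ticam2) with TRIF (Ticam1) from endosomes, which leads to interferon beta through IRF3. CD180, also called RP105, resembles the outer part of TLR4 but lacks the signalling TIR domain, and it pairs with MD-1, encoded by Ly86, as TLR4 pairs with MD-2. In macrophages and dendritic cells of mice this second pair has been described as a restraint on TLR4, and in B cells as an activating receptor.

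The sequences of the 2 splice choices described further on are given first, since they separate a receptor or co-receptor from a form that lacks part of it. All are from the GENCODE M21 transcripts on mm10, plus strand. In Ly96-202, exon 3 starts 54 bases later than in Ly96-201 (the skipped bases are chr1:16700795-16700848), so that its coding part is 426 bases long, against 480 in Ly96-201. The capitals mark the 54 bases that Ly96-202 lacks, with 30 bases on either side.

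Ly96-201: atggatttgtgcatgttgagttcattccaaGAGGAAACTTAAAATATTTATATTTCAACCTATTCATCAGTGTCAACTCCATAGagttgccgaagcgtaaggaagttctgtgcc

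Ly96-202: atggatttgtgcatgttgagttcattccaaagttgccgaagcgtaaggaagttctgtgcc

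In Cd180-203 the last exon is not exon 3 of Cd180-201 (coding bases from chr13:102704705) but a distal exon at chr13:102739166-102739629. The coding part is 315 bases in Cd180-203, against 1983 in Cd180-201, since exon 3 carries 1726 of the coding bases of Cd180-201. The capitals mark the first 45 coding bases of the last exon, after the 30 bases that end exon 2.

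Cd180-203: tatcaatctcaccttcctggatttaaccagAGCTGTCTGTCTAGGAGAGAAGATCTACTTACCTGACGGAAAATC

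Cd180-201: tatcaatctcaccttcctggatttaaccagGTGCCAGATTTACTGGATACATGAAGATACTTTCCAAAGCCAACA

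Promoters of 3 members are also shown, that of the most abundant one and those of the adaptors that head the 2 branches. They are the 250 bases before a RefSeq start (build GRCm38.p6), each written along the strand of its gene: Cd180 at chr13:102693308-102693557 on the plus strand, Myd88 at chr9:119340019-119340268 and Ticam1 at chr17:56276768-56277017 on the minus strand. Of the 10 members, 5 had an entry in that table. 4 motifs were searched on both strands: the PU box GAGGAA, the NF-kB form, which is GGG, any 5 bases and CC, the interferon-response core, which is GAAA, any 2 bases and GAAA, and the TATA box TATAAA. Capitals mark matches.

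Cd180 promoter: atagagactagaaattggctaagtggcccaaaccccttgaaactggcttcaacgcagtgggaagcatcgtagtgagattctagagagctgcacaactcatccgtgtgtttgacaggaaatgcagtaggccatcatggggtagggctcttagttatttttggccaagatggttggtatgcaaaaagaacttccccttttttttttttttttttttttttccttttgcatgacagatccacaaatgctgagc

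Myd88 promoter: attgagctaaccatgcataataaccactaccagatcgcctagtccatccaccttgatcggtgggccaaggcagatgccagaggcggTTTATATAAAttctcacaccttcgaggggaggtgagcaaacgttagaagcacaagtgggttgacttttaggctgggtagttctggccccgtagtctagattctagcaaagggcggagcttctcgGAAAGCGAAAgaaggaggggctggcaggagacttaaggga

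Ticam1 promoter: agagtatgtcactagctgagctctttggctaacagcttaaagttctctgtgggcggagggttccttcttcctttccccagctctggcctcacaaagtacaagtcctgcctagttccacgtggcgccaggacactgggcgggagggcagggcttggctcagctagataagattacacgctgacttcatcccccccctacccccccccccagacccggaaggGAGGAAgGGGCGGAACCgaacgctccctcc

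The Myd88 window holds the interferon-response core as GAAAGCGAAA, 40 to 31 bases before the start. It also holds a TATAAA 160 to 155 bases before the start, which overlaps a match on the other strand (164 to 159 bases). The Ticam1 window holds GAGGAA 30 to 25 bases before the start and GGGCGGAACC 23 to 14 bases before it. The Cd180 window holds none of the 4. Of 32851 promoter windows of this length, 2.98% hold the interferon-response core, 12.4% TATAAA, 23.3% GAGGAA and 45.8% the NF-kB form, and a match describes letters, not binding.

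Levels are TPM, the transcript abundance per length scaled to a fixed total per library. Values are means ± SD over 4 libraries. Of the 10 members, 9 lay above 1 TPM and 1, Lbp, lay below it (limma on log2(TPM + 0.1), one-sided, Benjamini-Hochberg adjusted over 16262 genes, threshold 0.05). Among all genes tested 58.2% lay above and 35.1% below, and among the protein-coding ones 71.2% lay above and 22.4% below. The members' count is to be read beside these shares. The members' median was 24.7 TPM, against 2.72 TPM for all genes tested and 4.85 TPM for the protein-coding ones. From the highest to the lowest mean, the order was Cd180, Ly86, Cd14, Myd88, Tlr4, Ly96, Ticam2, Ticam1, Tirap and Lbp. Cd180 exceeded Lbp by a factor of 405 in mean TPM.

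**Figure D1:**
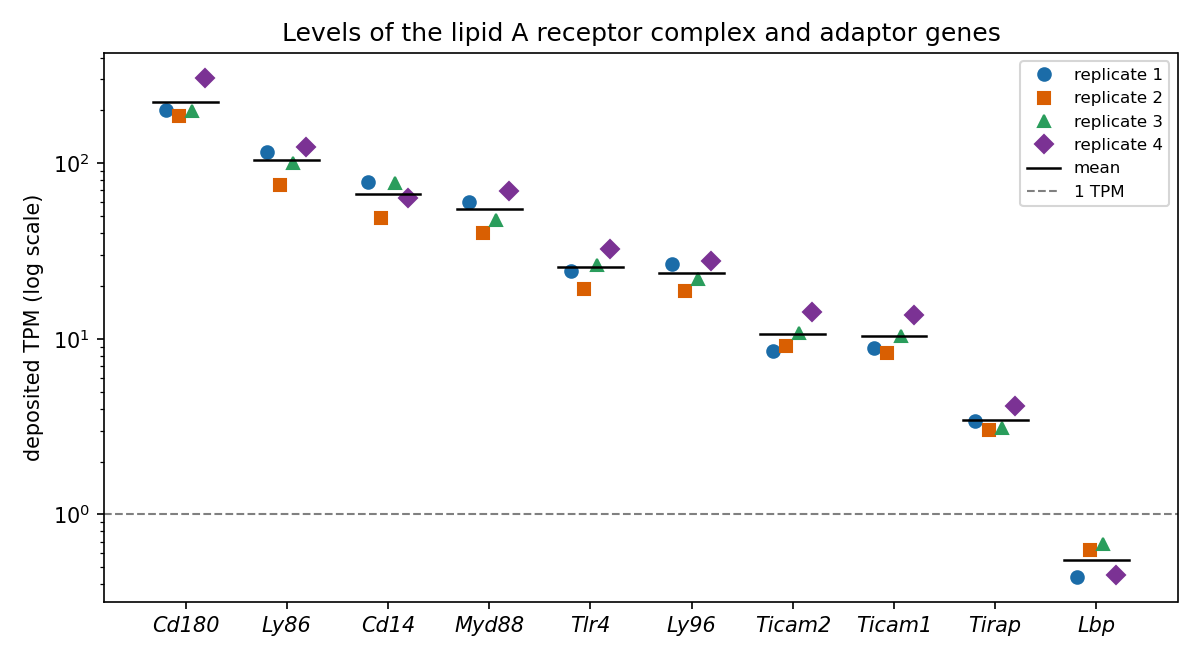
Deposited TPM of the 10 members (log scale) in each of the 4 libraries, with the mean as a bar and the level of 1 TPM dashed. Cd180 leads in each library and Lbp alone lies under the line, while Tlr4 with Ly96 and Ticam2 with Ticam1 stand at nearly the same height.

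The RP105 pair was the most abundant part of the set. Cd180 (chromosome 13, 102693558 to 102739629) had 201.2, 186.5, 197.3 and 306.0 TPM in replicates 1 to 4, a mean of 223 ± 55.8 TPM, which put it in the top 1.29% of the 12636 protein-coding genes tested. Replicate 4 stood apart from the other 3 libraries, which lay within 186.5 to 201.2 TPM. Ly86 (chromosome 13, 37345208 to 37419036), whose product MD-1 is needed for RP105 to reach the cell surface, had 115.8, 74.9, 100.3 and 124.0 TPM, a mean of 104 ± 21.6 TPM. Replicate 2 was the low library of Ly86. Together the pair made up 62.3% ± 2.78 of the members' summed TPM (59.96% to 65.5% over the libraries). In bulk RNA, the number of cells that hold a transcript and the amount of it per cell cannot be told apart.

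Since RP105 is also a B cell receptor, B cell markers are given beside it. Of 9 such genes, 2 lay above 1 TPM, the inhibitory receptor Cd22 at 6.99 ± 3.11 TPM and the antigen receptor chain Cd79b at 1.36 ± 0.334 TPM. The 9 summed to between 5.46 and 13.0 TPM per library, and none was at 0 in all 4. Among the B cell markers not above 1 TPM, Ighm was highest at 0.415 ± 0.115 TPM. Ms4a1 had 0.00750 ± 0.00500 TPM and Cd79a 0.0225 ± 0.0263 TPM. Macrophage markers lay above the level in 13 of 13 cases, with a median of 268 TPM, led by Lyz2 (3430 ± 684 TPM) and C1qb (997 ± 149 TPM), and they include Cd14, which is a member here.

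The TLR4 complex itself was lower. Tlr4 (chromosome 4, 66827584 to 66930284), the signalling receptor, had 24.4, 19.3, 26.4 and 32.6 TPM, a mean of 25.7 ± 5.53 TPM. Ly96 (chromosome 1, 16688051 to 16709611), whose product MD-2 makes the lipid-binding pocket, had 26.6, 18.7, 21.9 and 27.9 TPM, a mean of 23.8 ± 4.27 TPM. Replicate 4 was high and replicate 2 low for both genes, and their ranges overlap. Cd14 (chromosome 18, 36725067 to 36726798), the co-receptor that loads MD-2, had 78.3, 48.7, 77.5 and 63.6 TPM, a mean of 67.0 ± 14.0 TPM. Each library of Cd14 lay above each library of Tlr4.

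Lbp (chromosome 2, 158306493 to 158332852), the serum carrier made mainly by the liver, had 0.44, 0.63, 0.68 and 0.45 TPM, a mean of 0.550 ± 0.123 TPM (limma adjusted p = 0.00233 for a level below 1 TPM). These values rest on 52, 71, 116 and 60 expected counts, fewer than for any other member. Rescaled to protein-coding genes, Lbp stood at 1.84 ± 0.629 TPM and lay above 1 TPM instead (limma adjusted p = 0.0101), so its side depends on the scale. On that scale 10 of 10 members lay above and 0 below, beside 67.8% above and 21.2% below among all genes tested. Of 8 hepatocyte genes, Alb and Apoa1 among them, 8 were at 0 in each library.

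The adaptors spanned a wide range. Myd88 (chromosome 9, 119335934 to 119341411), the adaptor shared by most Toll-like and interleukin-1 family receptors, had 60.5, 40.3, 47.8 and 69.9 TPM, a mean of 54.6 ± 13.2 TPM. Tirap (chromosome 9, 35184551 to 35200291), which brings MyD88 to the membrane, was the least abundant adaptor, with 3.42, 3.02, 3.12 and 4.16 TPM and a mean of 3.43 ± 0.515 TPM. Tirap lay above 1 TPM in each library (limma adjusted p = 8.79e-07). It missed the threshold in the second quantification as deposited (1.34 TPM, limma adjusted p = 0.0835). There 8 members lay above 1 TPM, beside 7324 of all 21508 genes tested. Ticam2 (chromosome 18, 46557291 to 46574533), which encodes the bridging adaptor TRAM, had 8.53, 9.15, 10.9 and 14.3 TPM, a mean of 10.7 ± 2.58 TPM. Ticam1 (chromosome 17, 56269319 to 56276786), which encodes TRIF, had 8.89, 8.32, 10.4 and 13.7 TPM, a mean of 10.3 ± 2.40 TPM. The values of Ticam2 and Ticam1 overlap in range, and replicate 4 was the highest library of both.

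Ratios within a library ask how partners stood to one another, and the scaling of a library cancels in them. It does not cancel fully in differences of log2(TPM + 0.1) for low genes such as Lbp. In all, 10 pairs were compared on log2(TPM + 0.1) with an exact two-sided sign-flip permutation test. With 4 libraries its smallest p is 0.125, which is 0.156 after Benjamini-Hochberg adjustment over the 10 pairs, so none could pass 0.05. The sign was the same in all 4 libraries for 8 of the 10 pairs, each at that smallest p.

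Cd180 exceeded Tlr4 by factors of 8.24, 9.68, 7.49 and 9.37 in replicates 1 to 4 (log2 difference 3.11 ± 0.171, 4 of 4 libraries). Ly86 exceeded Ly96 by factors of 4.36, 4.02, 4.57 and 4.44 (log2 difference 2.11 ± 0.0805, 4 of 4 libraries). The RP105 receptor and its small partner were thus both above their TLR4 counterparts by several times the spread of the libraries. Within the complexes the partners stood differently. Ly96 stood at 1.09, 0.968, 0.833 and 0.855 times Tlr4, above it in 1 library and below it in 3 (log2 difference -0.10 ± 0.177, exact permutation p = 0.375, adjusted 0.375). Ly86 stood at 0.576, 0.402, 0.508 and 0.405 times Cd180, below it in 4 of 4 libraries (log2 difference -1.10 ± 0.255).

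Among the remaining pairs, Cd14 exceeded Tlr4 by factors of 1.95 to 3.21 (log2 difference 1.38 ± 0.314). Lbp stood at 0.00562 to 0.0129 times Cd14. The serum carrier was thus the scarcer of the 2 carriers in each library.

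At the head of the 2 branches, Myd88 exceeded Ticam1 by factors of 4.58 to 6.81 (log2 difference 2.39 ± 0.254, 4 of 4 libraries). The bridging adaptors showed another order. Tirap stood at 0.0565 to 0.0750 times Myd88 (log2 difference -3.93 ± 0.183), while Ticam2 stood at 0.960, 1.10, 1.04 and 1.04 times Ticam1 (log2 difference 0.05 ± 0.0804, above in 3 of 4 libraries, exact permutation p = 0.375, adjusted 0.375). The sorting adaptor of the MyD88 branch was thus far below the adaptor it recruits, whereas no difference beyond the spread was seen in the TRIF branch. Ticam2 exceeded Tirap by factors of 2.49 to 3.48 (4 of 4 libraries). Ticam2 shares 838 exonic bases with the gene Tmed7 on the same strand. The ratios of Ticam2 thus depend in part on how reads there were split.

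**Figure D2:**
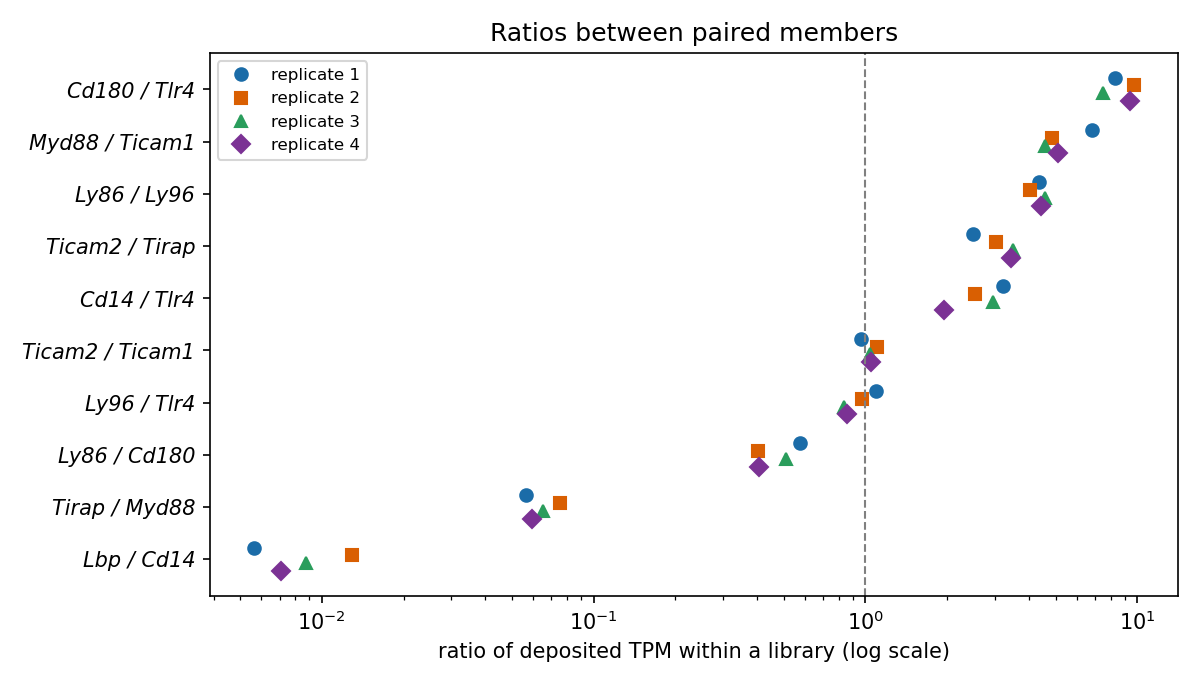
Ratio of deposited TPM between the members of each of the 10 pairs, per library (log scale, 1 dashed). Of these, 8 pairs lie wholly on one side of 1, and Ly96 over Tlr4 (0.833 to 1.09) and Ticam2 over Ticam1 (0.960 to 1.10) straddle it.

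In the order by mean TPM, 6 of the 9 neighbouring pairs kept their sign in all 4 libraries (exact permutation p = 0.125 each, adjusted 0.188). Cd14 and Myd88 did not differ beyond their spread, with Cd14 higher in 3 of 4 libraries (ratio 0.910 to 1.62, exact permutation p = 0.25, adjusted 0.321). The other 2 neighbouring pairs that changed sign were Tlr4 with Ly96 and Ticam2 with Ticam1. Replicate 1 alone turned the sign in both, and without it 8 of the 9 neighbours and all 10 pairs had one sign.

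The libraries differed in a way that ran through most of the members. Library totals ran from 30660511 to 48223718 expected counts. On deposited TPM, replicate 4 was the highest library for 8 of the 10 members and replicate 2 the lowest for 8 of 10. How often each library was highest or lowest among all genes was not counted. These counts are therefore not read as a trait of the members. The share of TPM taken by protein-coding genes also differed, and rescaling TPM to those genes multiplied values by 3.15, 3.95, 3.34 and 2.73 in replicates 1 to 4. After rescaling, replicate 4 was highest for 4 members and replicate 2 lowest for 3, and the median coefficient of variation over the members was 11.1% on rescaled TPM, against 21.9% on deposited TPM. It was smaller for 9 of the 10 members, with Lbp the exception.

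On the rescaled values the members kept patterns of their own. Tirap varied least, with 10.8, 11.9, 10.4 and 11.4 rescaled TPM (coefficient of variation 6.00%), followed by Ly96 with 83.8, 73.7, 73.2 and 76.2 (6.37%). Cd14 had 247, 192, 259 and 174 rescaled TPM (18.9%), with replicates 2 and 4 below the others. Ticam2 had 26.9, 36.2, 36.2 and 39.0 rescaled TPM (15.3%) and Ticam1 28.0, 32.9, 34.8 and 37.3 (11.8%). Replicate 1 was the low library of both TRIF-branch adaptors. Rescaled Cd180 had 634, 737, 658 and 835 TPM, with replicate 4 highest but no longer far from the rest.

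**Figure D3:**
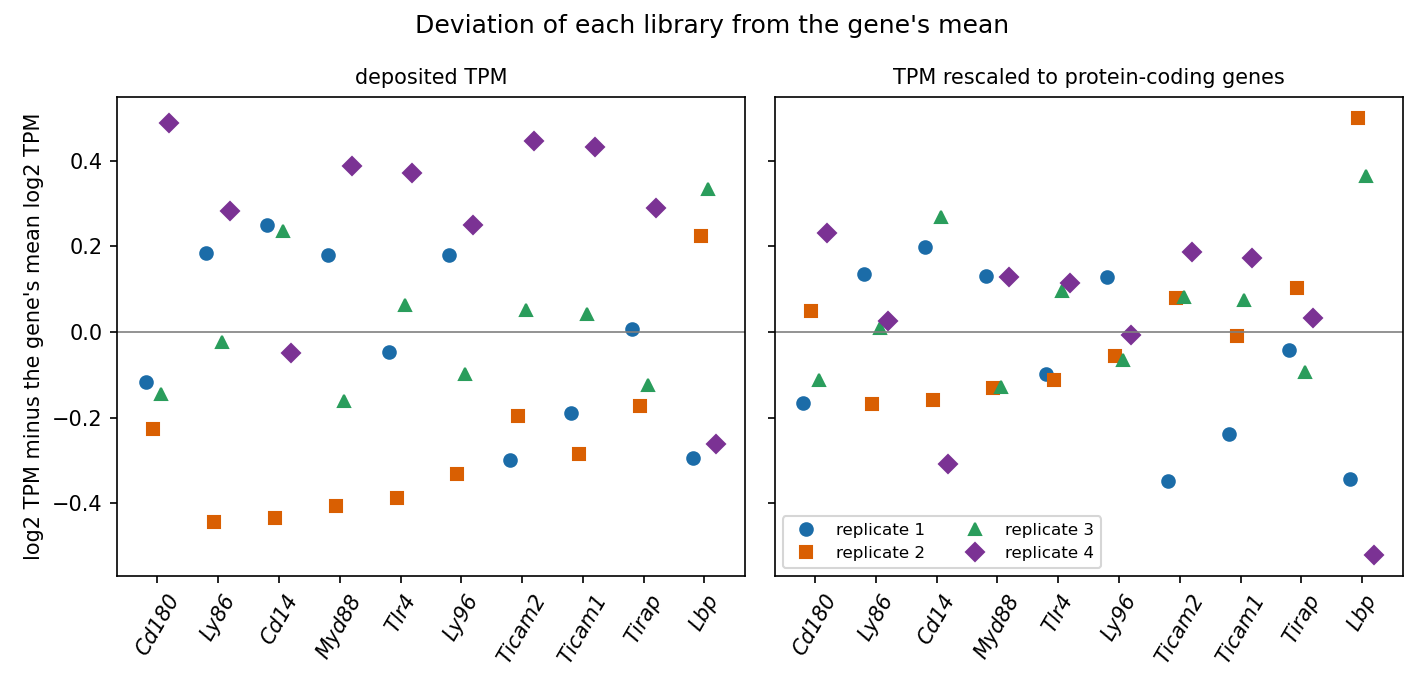
Log2 TPM of each member in each library minus the mean of that member over the 4 libraries, on deposited TPM (left) and on TPM rescaled to protein-coding genes (right). On the left replicate 4 is on top for 8 members and replicate 2 lowest for 8; on the right no library leads in more than 4.

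Spread beyond counting error was measured as the biological coefficient of variation of edgeR on expected counts (TMM normalisation). It ran from 0.126 for Tirap to 0.315 for Lbp, with a median of 0.147 over the 10 members, against 0.206 for all 16262 genes. Among the 10373 protein-coding genes whose counts averaged 50 or more, as those of all 10 members did, the median was 0.155, close to that of the members.

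The genes whose pattern over the 4 libraries came nearest to that of Tlr4 were Stag2, which encodes a cohesin subunit, Tbc1d10b, which encodes a Rab GTPase-activating protein, and Cyld, which encodes a deubiquitinase. Their centred log2 TPM differed from that of Tlr4 by at most 0.0223, 0.0236 and 0.0237 in any library. Of 4212 protein-coding genes of at least 10 TPM, 190 stayed within 0.1 of Tlr4, and all share the scaling of the 4 libraries. The nearest member was Ticam1 (0.141), then Cd180 (0.208), and the farthest were Cd14 (0.421) and Lbp (0.592).

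Most members were carried by 1 annotated transcript. The same transcript led in 4 of 4 libraries and in both quantifications for each of the 10 members, and it held at least 90% of the gene's TPM on average in 8 of them. That count was 7 with the second quantification, where Cd14-201 held 88.0% ± 3.56, against 90.1% ± 2.76 in the first, and 7 to 9 when each library was left out. Ticam1 has 1 annotated transcript, so its share is 100% by definition. How many of all genes reach 90% was not counted, so the 8 are not read as a trait of the members. Ly86-201 (99.6% ± 0.424), Myd88-201 (99.6% ± 0.372), Tlr4-201 (98.6% ± 0.641), Ly96-201 (98.5% ± 0.749) and Ticam2-201 (98.4% ± 1.68) were near 100%. The exceptions were Tirap-201 with 72.6% ± 2.92 and Lbp-201 with 86.8% ± 17.99. Lbp-201 held 62.5% by posterior mean TPM, and in replicate 2 it held 61.9% of the TPM, with Lbp-203 at 31.7% on 2.98 expected counts.

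Cd180 used an alternative last exon. Cd180-203, whose junction is printed above, had 12.6, 11.4, 11.4 and 19.9 TPM in replicates 1 to 4. With Cd180-205, which joins exon 1 to the same distal exon, it held 7.03%, 7.92%, 7.69% and 7.79% of the gene's TPM, a mean of 7.61% ± 0.396. The second quantification gave 7.59% ± 0.498. The share varied little although the deposited TPM of the gene in replicate 4 was well above the rest. The distal exon shares 182 bases with an exon of Mast4, a kinase gene on the other strand, which had 1.62 ± 0.768 TPM. Whether the counting used the strand is not given in the sources used here, so reads from the 2 strands cannot be told apart there.

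Tlr4 and Cd180 share an exon layout. In both, the coding part of exon 1 is 90 bases and exon 2 is 167 bases, and exon 3 carries the rest, 2248 coding bases in Tlr4-201 and 1726 in Cd180-201. Tlr4 also has an annotated form that leaves exon 2 for distal exons, Tlr4-202. It had 0.03, 0.01, 0.03 and 0.06 TPM, far less than Cd180-203. Tlr4-204, a noncoding form with another first exon, was at 0, 0.12, 0 and 0 TPM in the first quantification. The second quantification gave it 0, 0.948, 0.970 and 0.648 TPM, and the share of Tlr4-201 was 91.4% ± 5.14 there.

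The shortened Ly96 form, Ly96-202, was near the limit of detection. It had 0.34, 0.24, 0.26 and 0 TPM in replicates 1 to 4, on 3.44, 3.55, 4.11 and 0 expected counts, against 18.2 to 27.8 TPM of Ly96-201. A form of MD-2 that lacks the start of exon 3 has been described in mice as a protein that binds TLR4 without bringing it to the surface.

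Tirap was the member most divided between transcripts. Tirap-203 had 0.67, 0.78, 0.65 and 0.96 TPM, or 22.4% ± 2.76 of the gene, and 30.9% ± 2.08 in the second quantification. Both Tirap-203 and Tirap-201 carry a coding part of 747 bases, and they differ in the first exon, in exon 2 (109 bases in Tirap-203 and 99 in Tirap-201) and in the length of the last one, which is 1146 bases in Tirap-203 and 3380 in Tirap-201. Most of the divided output thus had coding parts of 1 length. Tirap exons also share bases with 2 genes on the other strand, Srpr (39 bases, 27.6 ± 4.58 TPM) and Gm39318 (446 bases, mean 0.00500 TPM).

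Cd14 was the member with the highest retained-intron share. Cd14-202, a single exon at chromosome 18, 36725871 to 36726738, that reads through the only intron of the gene, had 7.45, 6.79, 6.10 and 5.34 TPM. That is 9.52%, 13.9%, 7.87% and 8.40% of the gene's TPM (9.93% ± 2.76), and 12.0% ± 3.56 in the second quantification. Replicate 2 had the highest share. The intron lies between 36726397 and 36726489, where the exons of Cd14-201 end and start. All other bases of Cd14-202 are also exonic in Cd14-201, so its share depends on how shared reads were split. In the first quantification the retained-intron share of Ticam2 was 0.234%, 3.93%, 0.553% and 1.82%, and those of Ly96, Ly86 and Myd88 lay at or under 1.07% in each library. In the second, Ticam2 reached 6.03%, Ly96 2.51%, Myd88 1.14% and Ly86 1.00%, each in replicate 2.

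Replicate 2 had the highest retained-intron share for 6 of the 6 members that have such a transcript, in both quantifications. For Lbp this rests on 0.01 TPM in replicates 2 and 3. The pattern was not particular to these genes, since replicate 2 was also highest for 76.8% of 2725 protein-coding genes with a retained-intron transcript and at least 10 TPM. The median share over those genes was 0.440%, 2.94%, 1.01% and 1.25% in replicates 1 to 4. The part of this library difference in the levels of the members was not tested.

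**Figure D4:**
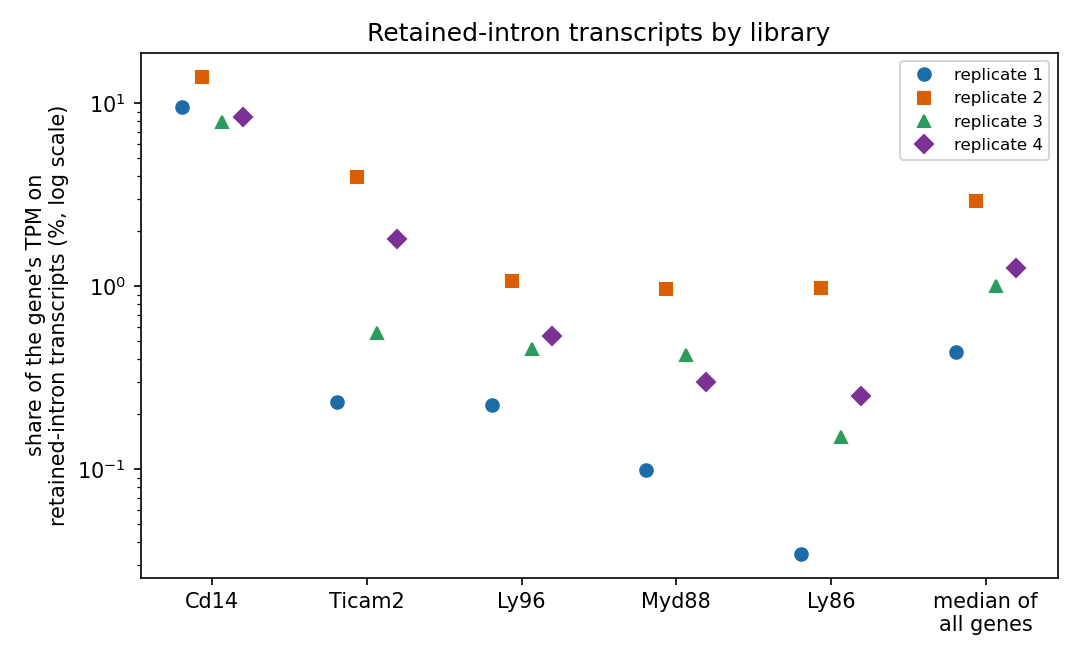
Share of each gene's TPM on retained-intron transcripts (percent, log scale) in each library for the 5 members above 1 TPM that have such transcripts, and the median over 2725 protein-coding genes. Replicate 2 is highest in each column, and Cd14 stands above the others at 7.87% to 13.9%.

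Neighbouring genes limit 2 further members. Ticam2 shares 838 exonic bases on the same strand with Tmed7, which encodes a cargo receptor for TLR4 and had 29.9 ± 5.41 TPM, so the split of reads there is uncertain. The shared bases include all 696 coding bases of Ticam2-201, a transcript of 4204 bases. Myd88 shares 290 exonic bases with Acaa1a, a peroxisomal thiolase gene on the other strand, which had 26.5 ± 6.44 TPM.

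The 2 quantifications of the same reads were compared per gene. On deposited TPM the members stood at log2 differences of -1.59 (Ticam2) to -1.30 (Tirap) in the second against the first, beside a median of -1.40 over all 10323 genes tested. None of the 9 members tested was called as differing by more than 1 on the log2 scale (limma treat, adjusted p from 0.102 to 0.169), and 5 had an unadjusted p under 0.05, while 6.44% of all genes were called. Lbp was too low for this test. Each of the other 9 members differed by more than 1 in the estimate, with a standard error of 0.259 for all. The lack of calls thus does not show that the 2 quantifications gave like values. After both were rescaled to protein-coding genes, members stood at -0.16 (Ticam2) to 0.11 (Lbp), beside a median of 0.05, with 0 of 10 members called, 0 at an unadjusted p under 0.05 and 4.15% of all genes called. Rescaled, Tlr4 stood at 85.7 ± 10.3 TPM in the second quantification and 82.5 ± 6.93 TPM in the first.

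The genes that act with the members came from 5 lists, which hold 56 genes, and 50 of these lay above 1 TPM. Among all genes tested 58.2% lay above it, and among the protein-coding ones 71.2%. The counts of these lists and of the cell type markers are to be read beside these shares. Helpers that fold or move Toll-like receptors lay above the level in 10 of 10 cases, with a median of 63.4 TPM. They were led by Unc93b1 (252 ± 54.5 TPM), which escorts the endosomal receptors, and Hsp90b1 (112 ± 29.9 TPM), the endoplasmic reticulum chaperone gp96 that TLR4 needs to fold. Cnpy4 was lowest at 4.38 ± 0.884 TPM. Kinases and ubiquitin ligases of the MyD88 branch lay above it in 14 of 14 cases, with a median of 12.0 TPM, from Ube2n (53.8 ± 14.2 TPM) and Ube2v1 (52.9 ± 8.0 TPM), which together build the ubiquitin chains that signal to the kinase TAK1, down to Tab3 (2.56 ± 0.324 TPM). The TRIF branch gave 10 of 10 above, with a median of 21.2 TPM, from the kinase Ikbke (61.7 ± 13.0 TPM) and its adaptor Azi2 (29.3 ± 8.38 TPM) down to Fadd (4.15 ± 0.656 TPM).

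Brakes on the receptor or adaptors were divided. Of 14, 11 lay above the level, 1 lay below it and 2 had too few counts for a test, with a median of 13.9 TPM. The tyrosine phosphatase Ptpn6 (132 ± 29.3 TPM) and the zinc finger gene Trafd1 (116 ± 32.5 TPM) were highest. Sigirr, an inhibitory receptor of the interleukin-1 family, lay below at 0.298 ± 0.149 TPM. Sarm1, the TIR protein described in human cells as an inhibitor of TRIF, had 0.00750 ± 0.00500 TPM, and Il1rl1, which encodes the interleukin-33 receptor, was at 0 in each library.

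Among 9 other proteins that bind lipopolysaccharide, 6 lay above the level, 1 lay below it and 2 were not tested, with a median of 17.1 TPM. The scavenger receptor Msr1 (119 ± 52.3 TPM) and the integrin chain Itgb2 (103 ± 21.4 TPM) were highest. Adgrb1, an adhesion receptor, lay below at 0.0275 ± 0.0222 TPM. Bpi, which encodes the bactericidal relative of LBP, had 0.00250 ± 0.00500 TPM, and Bpifb1 was at 0 in each library.

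**Figure D5:**
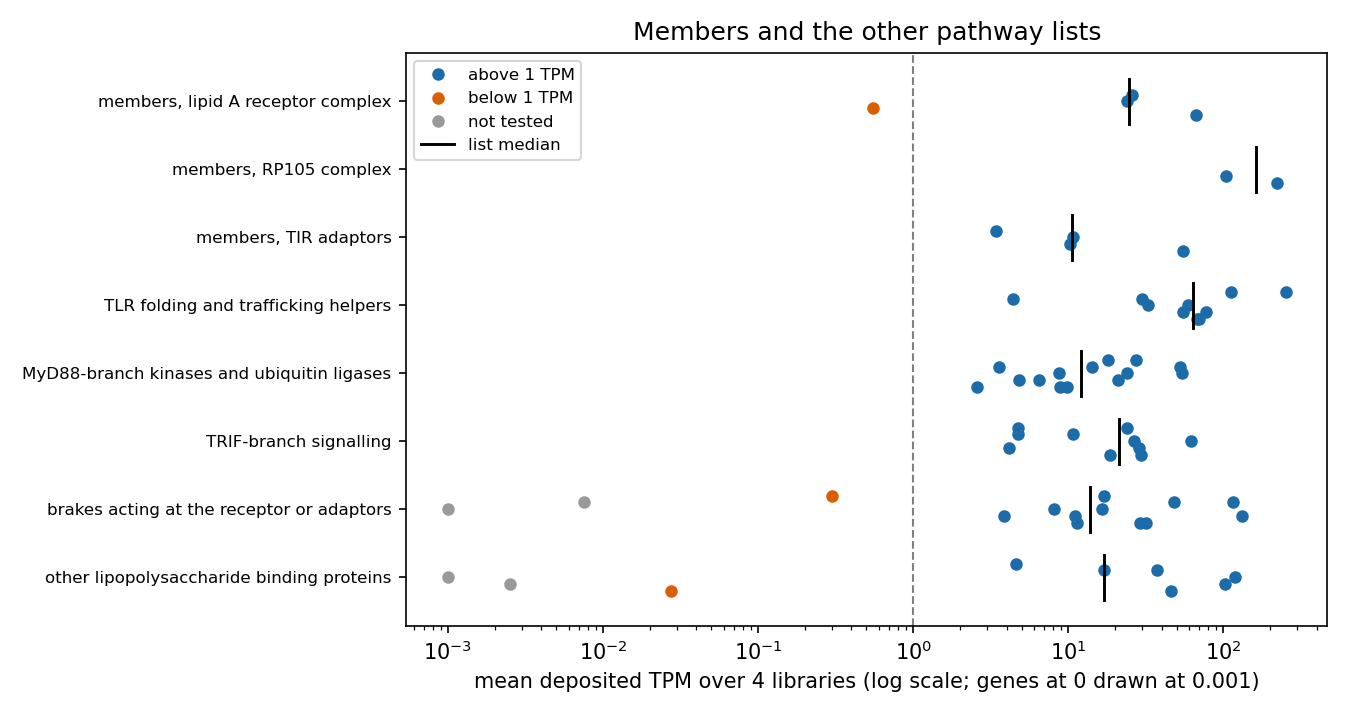
Mean deposited TPM over 4 libraries (log scale) of each gene in the 3 groups of members and the 5 other lists, with the list median as a bar and 1 TPM dashed. The RP105 pair has the highest group median, and the genes at or near 0 are the brakes Sarm1 and Il1rl1 and the lipid-binding Bpi, Bpifb1 and Adgrb1.

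Other cell types gave few genes above the level, in 1 of 8 T cell, 3 of 10 neutrophil, 1 of 7 dendritic cell and 0 of 8 fibroblast markers. The genes above it were Cd4 (15.0 ± 4.401 TPM), the calgranulins S100a9 (6.25 ± 1.91 TPM) and S100a8 (4.54 ± 1.27 TPM), Mmp8 (2.28 ± 0.379 TPM) and Batf3 (2.06 ± 0.591 TPM). Among the markers of these lists not above 1 TPM, the dendritic cell marker Ccr7 was highest at 0.938 ± 0.422 TPM and was called neither above nor below. Cd3e had 0.0625 ± 0.0675 TPM, and Ly6g had 0 TPM in 3 libraries and 0.02 TPM in replicate 4.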

How the data were processed

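RNA of 4 cytosolic samples was sequenced after depletion of ribosomal RNA. Per the file headers, the authors' gene tables and first transcript tables give expected counts, TPM and posterior mean TPM, and their second transcript tables give estimated counts and TPM. The deposited TPM are scaled to a fixed total over all features, short noncoding RNA included, so a member's TPM moves with that share. The build was mm10 with annotation M21, per the submitters' processing notes. The aligner, the quantification tools and the strand setting were not given in the sources used here.

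A gene was tested if its expected counts summed to 10 or more, in limma 3.58.1 (intercept only, variance trend) on log2(TPM + 0.1), one-sided against 1 TPM, with Benjamini-Hochberg adjustment over all genes and a threshold of 0.05. Spread was estimated with edgeR 4.0.16 (TMM, estimateDisp) on expected counts rounded to whole numbers. The quantifications were compared with limma treat (log2 difference of 1, mean of 1 TPM or more in either), and pairs with exact sign-flip permutation. DESeq2 1.42.0 served as an alternative for dispersion. Expected counts summed to 30660511, 36681241, 48223718 and 42785115 in replicates 1 to 4. Fits were tested on simulated data that held no scaling shift between libraries or quantifications, so that check does not cover such shifts. R 4.3.3 and Python 3.11.15 were used.

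Alternatives were rescaling to protein-coding genes, TMM-scaled TPM, posterior means, the second quantification, a pseudocount of 1, other filters and leaving out each replicate. Members and lists were chosen with earlier results of these data known. Named genes are the members, the 2 highest and the lowest of each other list plus those not above 1 TPM where these are 3 or fewer, the 3 genes most like Tlr4, and transcripts with at least 10% of a member's TPM in either quantification. Cell type markers and minor transcripts beyond that rule were named, and the retained-intron shares of all genes were added, after values were seen. Some genes that the rule selects are not reported here.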

Additional observations from a re-analysis of the deposited data

Results flagged for a closer look

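Of 40 groups of 4 values tested for a library far from the others, 1 stood out. Cd180 had 305.98 TPM in replicate 4, against 201.17, 186.52 and 197.25 TPM in replicates 1 to 3, and the gap to the nearest library was 0.877 of the whole range. Chance gives about 1 such group in 20. On TPM rescaled to protein-coding genes, replicate 4 had 835 TPM against 634 to 737 TPM in the others and did not stand out by the same measure.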

How the results depend on the processing

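No paired analysis was possible because all 4 libraries belong to 1 group, so that no 2 groups share replicate numbers. The counts of members and pathway genes above or below 1 TPM, of pairs and neighbours of one sign, of members called between quantifications and of members with a leading share of 90% or more were recomputed under alternatives, as were the median spread and single values. Marker counts, library extremes and likeness to Tlr4 were not. Lbp turned to the upper side of 1 TPM once rescaled to protein-coding genes (1.84 TPM, limma adjusted p = 0.0101) and with the second quantification rescaled (2.05 TPM, limma adjusted p = 0.0261). On these scales 0 members lay below 1 TPM, beside 3453 of 16262 genes in the first quantification and 6378 of 21508 in the second. Tirap had no call with the second quantification as deposited (1.34 TPM, limma adjusted p = 0.0835). With a pseudocount of 1, 3 members (Cd14, Ly86 and Myd88) were called lower in the second quantification. Beside them, 1311 of all 10323 genes tested were called lower and 97 higher, so the 3 are not read as a trait of the members. The median biological coefficient of variation of the members was 0.148 without a filter, 0.124 with DESeq2, and 0.133 to 0.164 when each replicate was left out. The causes were not tested. Leaving out a library changed no level call of a member. The number of pathway genes above 1 TPM was 50 whichever library was left out, 46 with the second quantification as deposited and 51 with it rescaled. Among all genes, 9435 of 15952, 9482 of 15111, 9367 of 15609 and 9329 of 15620 lay above it without replicates 1 to 4. With the second quantification 7324 of 21508 genes lay above it as deposited, and 11309 of 21508 once rescaled. Of the single values, 289 kept their direction and their side of the threshold or, where no test applied, moved by less than 1 SD. Of the 15 that moved further, 6 were leading shares (of Tlr4, Ly96, Lbp and Tirap), 6 were differences within pairs and 3 were differences between neighbours in the order. The pairs were Lbp with Cd14, Ly86 with Ly96, Tirap with Myd88 and Ticam2 with Tirap. The neighbours were Ticam1 with Tirap and Tirap with Lbp. These differences moved with the second quantification or a pseudocount of 1, and they kept their sign. Depth limits Lbp (52 to 116 expected counts) and minor transcripts such as Ly96-202 (at most 4.11).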
